A study of Mus musculus with 2 samples.

Results

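The genes described here set the level of cyclic AMP (cAMP) in the mouse oocyte and the activity of its effector, protein kinase A (PKA). The 10 genes were chosen by symbol for their place in this pathway, and each was found by its Ensembl identifier in the deposited table of 36227 genes, of which 18017 had counts. They were the receptors Gpr3 and Gpr12, the adenylyl cyclases Adcy3 and Adcy9, the phosphodiesterase Pde3a, the PKA catalytic subunits Prkaca and Prkacb, the PKA regulatory subunits Prkar1a and Prkar2a, and the PKA anchor Akap1. Of these, 8 reached 10 CPM (counts per 1000000 counts of the library) in at least 1 library, the level from which genes are called expressed below, and Gpr12 and Adcy3 did not.

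The libraries came from a study of maternal slimming. Female ICR mice, an outbred strain, became obese in ordinary cages by 12 weeks of age. The slimming mothers then spent 4 weeks in enriched-environment cages, and the control mothers stayed in normal cages on a standard diet. At 16 weeks, 9 naturally ovulated oocytes arrested at metaphase II were pooled per group, 3 from each of 3 mice, and each pool became 1 library. The comparison asks whether this change in the mothers' way of life went with a change in the mRNA of their eggs. Each group was a single library, so the groups could not be tested against each other: intervals cover counting error only, and each difference describes these libraries and not the conditions. A smaller share of counts cannot be told apart from less of that mRNA in each oocyte or from fewer of the 9 oocytes contributing it.

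In the growing follicle the oocyte stays arrested at the first meiotic prophase as long as its cAMP is high. A constitutively active receptor signals through the stimulatory G protein to adenylyl cyclase, the cAMP frees the catalytic subunits of PKA from their regulatory subunits, and PKA keeps the kinase CDK1 off through WEE2 and CDC25B. Cyclic GMP that enters from the surrounding granulosa cells through gap junctions blocks PDE3A, and when that supply ends after the surge of luteinizing hormone, PDE3A breaks cAMP down and meiosis resumes. The oocytes measured here had passed that step, so their mRNAs are those left in the egg after the arrest was released.

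The library labelled slimming held 20947962 counts and the control library 20242289 counts. All 10 markers of the oocyte that were listed had counts in both libraries and summed to 99276 CPM in slimming oocytes and 101088 CPM in control oocytes, most of it from Gdf9 and H1foo. On that list 6 genes were higher and 4 lower in the slimming library. The zona pellucida genes Zp1, Zp2 and Zp3 were furthest apart, at log2 ratios of slimming over control of 0.94, 0.81 and 1.03. Bmp15 stood at 0.25, and the others lay between -0.12 (H1foo) and 0.05 (Ooep and Dppa3). Of 15 markers of cumulus and granulosa cells, 9 had counts, and 5 of these, Inha, Inhba, Inhbb, Cyp11a1 and Tnfaip6, were at 0 in the slimming library and none at 0 in the control library. That list summed to 41.3 CPM in slimming oocytes and 55.3 CPM in control oocytes, most of it from Cyp19a1. Of 12 immune markers, 11 had counts, with 6 at 0 in slimming oocytes and 0 at 0 in control oocytes and sums of 27.6 CPM in slimming oocytes and 45.2 CPM in control oocytes. Over all genes, too, fewer were detected in slimming oocytes: 15831 of the 18017 with counts, against 16466 for control oocytes.

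The oligo(dT) primer used to make these libraries captures mRNA by its poly(A) tail, so transcript ends are shown for the receptor pair and the catalytic pair, whose balance differed most between the libraries of the pairs described below. Each is 30 bases of the annotated transcript around the polyadenylation signal, from GENCODE vM21 on GRCm38, with signals (AATAAA or ATTAAA) and any cytoplasmic polyadenylation element (TTTTAT or TTTTAAT) in capitals. Gpr3 lies at chr4:133209340-133209369 on the minus strand, Gpr12 at chr5:146582400-146582429 on the minus strand, Prkaca at chr8:83996414-83996443 on the plus strand and Prkacb at chr3:146729593-146729622 on the minus strand.
Gpr3: actcAATAAAaaaaaaatggtttttttgga
Gpr12: acccagaATTAAAagagtcattttttcttc
Prkaca: attaccAATAAAgttttgttttaaAATAAA
Prkacb: TTTTAATtcatcaataaccgcaaaATTAAA
Of these, Prkacb was the one whose site held a cytoplasmic polyadenylation element, a sequence that in maturing oocytes is known to direct the lengthening of poly(A) tails. On the transcript strand of the last 150 bases, 7 of the 10 genes held a polyadenylation signal, against 86.7% of 5357 expressed genes with an annotated coding transcript, and 4 of the 10 (Adcy3, Pde3a, Prkacb and Akap1) held TTTTAT or TTTTAAT, against 28.6%. In Adcy3 the element overlapped the signal. A match describes these letters and not the length of any tail in these eggs. Whether the element goes with the difference between the libraries was not tested.

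The receptors were represented almost wholly by Gpr3, the receptor that holds meiotic arrest in the mouse. Gpr3 (ENSMUSG00000049649, chromosome 4) had 1558 counts (74.4 CPM) in the slimming library and 1481 counts (73.2 CPM) in the control library. Its log2 ratio of slimming over control was -0.01 (95% counting interval -0.11 to 0.10), and 98.6% of the genes with a mean level of 30 to 100 CPM were at least as far apart. Gpr12 (ENSMUSG00000041468, chromosome 5), a close relative that holds the arrest in rat oocytes, had 19 counts (0.907 CPM) in the slimming library and 38 counts (1.88 CPM) in the control library. Its log2 ratio was -1.06 (interval -1.96 to -0.25), 2.09-fold lower in the slimming library. Among genes that reached 1 CPM but not 10 CPM in either library, 16.5% were lower by 2-fold or more and 16.7% were higher by as much, and with 5 added to each count in place of 0.5 Gpr12 was under 2-fold lower. Per kilobase of the longest annotated transcript, the level of Gpr3 was 72.3 times that of Gpr12 in the slimming library and 34.3 times in the control library. Gpr12 made up 1.20% of the counts of the pair in the slimming library (exact binomial 95% interval 0.727 to 1.88) and 2.50% in the control library (1.78 to 3.42). The ends of these intervals overlap. Exons of Gpr3 share 204 bases with Cd164l2 on the opposite strand, which had 1136 CPM in slimming oocytes and 806.1 CPM in control oocytes at a log2 ratio of 0.46. Since the use of strand is not given in the sources used here, reads of these overlapping genes cannot be told apart, and the Gpr3 counts are uncertain. Another relative, Gpr6, had no count in either library.

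Of the cyclases that make cAMP, Adcy9 was abundant and close to equal, and Adcy3 was near the lower end of detection. Adcy9 (ENSMUSG00000005580, chromosome 16) had 1280 counts (61.1 CPM) in the slimming library and 1271 counts (62.8 CPM) in the control library, at a log2 ratio of -0.07 (interval -0.18 to 0.04). Adcy3 (ENSMUSG00000020654, chromosome 12), a cyclase detected earlier in rodent oocytes, had 18 counts (0.859 CPM) in the slimming library and 22 counts (1.09 CPM) in the control library. Its log2 ratio of -0.36 had an interval from -1.35 to 0.60, which held both equality and a 2-fold lower level, so a difference was not detectable at this depth. It made up 1.39% (0.824 to 2.18) of the counts of the cyclase pair in the slimming library and 1.70% (1.07 to 2.56) in the control library, and these intervals overlap. Exons of Adcy3 share 1380 bases with Cenpo on the opposite strand, which stood at 91.3 CPM in slimming oocytes and 104.7 CPM in control oocytes, so even this low count of Adcy3 is uncertain.

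Pde3a, the phosphodiesterase whose activity lets meiosis resume, was expressed at a low level in both libraries. Pde3a (ENSMUSG00000041741, chromosome 6) had 346 counts (16.5 CPM) in the slimming library and 370 counts (18.3 CPM) in the control library. The log2 ratio was -0.18 (interval -0.39 to 0.04), and 70.0% of the genes with a mean of 10 to 30 CPM were at least as far apart. Its annotated transcript is 12302 nucleotides long, so per kilobase it stood at 1.34 CPM in slimming oocytes and 1.49 CPM in control oocytes, eighth of the 10 genes in each. A predicted gene on the opposite strand, Gm28523, shares 741 of its exon bases and was not analysed here. Beyond the overlaps given here, the longest coding transcripts of the 10 genes matched another annotated gene over 100 bases or more at 95% identity or above once, a stretch of 149 bases between Pde3a and Pole.

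**Figure D1:**
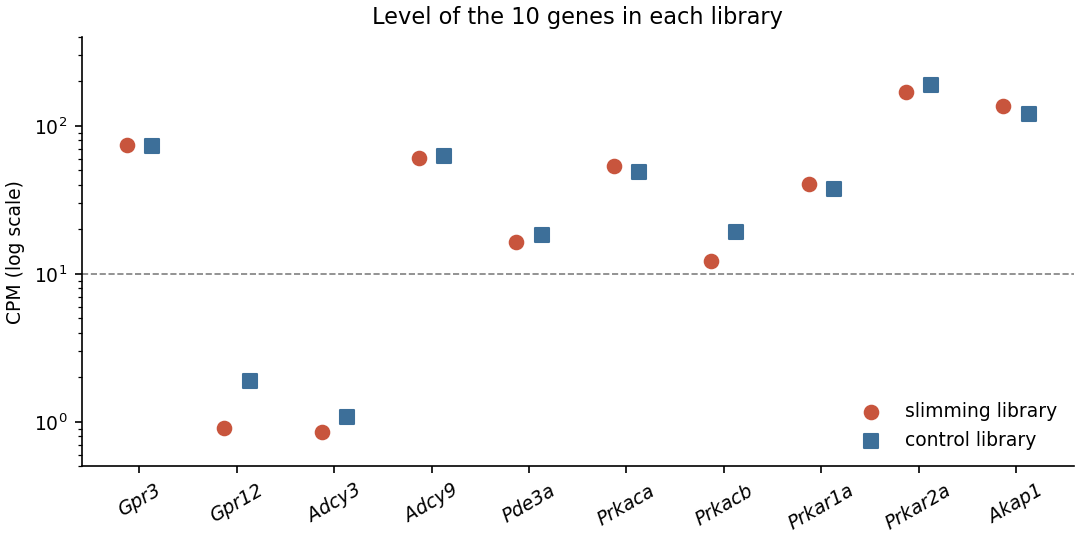
The vertical axis gives CPM on a log scale for each of the 10 genes, with the slimming library as circles and the control library as squares, and the dashed line marks 10 CPM. The widest gaps are those of Gpr12 (0.907 CPM slimming, 1.88 CPM control) and Prkacb (12.2 CPM slimming, 19.1 CPM control), and Gpr12 and Adcy3 lie far under the line.

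The catalytic subunits of PKA, which carry the kinase activity, differed from each other in how the libraries compared. Prkaca (ENSMUSG00000005469, chromosome 8) had 1114 counts (53.2 CPM) in the slimming library and 983 counts (48.6 CPM) in the control library, at a log2 ratio of 0.10 (interval -0.03 to 0.22). Prkacb (ENSMUSG00000005034, chromosome 3) had 255 counts (12.2 CPM) in the slimming library and 387 counts (19.1 CPM) in the control library. Prkacb was 1.60-fold lower in the slimming library (log2 ratio -0.68, interval -0.92 to -0.45), the largest difference among the 8 expressed genes of the set. Of the genes with a mean of 10 to 30 CPM, 16.1% were at least as far apart. Prkacb gave 18.6% of the counts of the catalytic pair in the slimming library (16.6 to 20.8) and 28.2% in the control library (25.9 to 30.7). The ratio of Prkacb to Prkaca, in which the scaling of the libraries cancels, was lower in the slimming library, with a log2 value of slimming over control of -0.78 (exact conditional interval -1.05 to -0.52, counting error only). Per kilobase, the level of Prkaca was 8.34 times that of Prkacb in the slimming library and 4.85 times in the control library; without the length correction it was 4.37 times in the slimming library and 2.54 times in the control library.

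Among the regulatory subunits, which hold the catalytic subunits inactive until cAMP binds, the type II gene was the more abundant. Prkar2a (ENSMUSG00000032601, chromosome 9) had 3560 counts (169.9 CPM) in the slimming library and 3829 counts (189.2 CPM) in the control library. Its log2 ratio was -0.19 (interval -0.25 to -0.12), beyond counting error but 1.14-fold, and 54.8% of the genes with a mean of 100 to 300 CPM were at least as far apart. Prkar1a (ENSMUSG00000020612, chromosome 11), the type I gene, had 844 counts (40.3 CPM) in the slimming library and 759 counts (37.5 CPM) in the control library, at a log2 ratio of 0.07 (interval -0.07 to 0.22). Prkar1a gave 19.2% of the counts of the regulatory pair in the slimming library (18.0 to 20.4) and 16.5% in the control library (15.5 to 17.7). The ratio of Prkar1a to Prkar2a was higher in the slimming library, with a log2 value of slimming over control of 0.26 (interval 0.10 to 0.42, counting error only). For neither this pair nor the catalytic pair was it examined how often other pairs of genes differ by as much.

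Akap1, which ties PKA to the outer membrane of mitochondria, was the one expressed gene of the set above equality by more than counting error. Akap1 (ENSMUSG00000018428, chromosome 11) had 2836 counts (135.4 CPM) in the slimming library and 2426 counts (119.8 CPM) in the control library. Its log2 ratio was 0.14 (interval 0.07 to 0.22), 1.11-fold higher, and 64.9% of the genes with a mean of 100 to 300 CPM were at least as far apart.

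Across the 8 expressed genes, 3 lay above and 5 below equality, with a median log2 ratio of -0.04, against 0.02 over all 5714 expressed genes. Of the 8, 0 were higher by 2-fold or more and 0 were lower by as much, where 2.73% and 1.94% of expressed genes were. At 1.5-fold, 0 were higher and 1 (Prkacb) was lower, against 10.3% and 7.16% of expressed genes. The counting interval lay above equality for 1 gene and below it for 2 genes, against 37.7% and 35.1% of expressed genes, and it included equality for the other 5, against 27.1%. In the authors' deposited table, 3 of the 10 genes (Prkacb, Prkar2a and Akap1) were marked at a p-value of 0.001, where 35.9% of the genes with a p-value were; that p-value compares the reads of these libraries with no replicate behind it. Transcript length went with the ratio over the expressed genes: cut into 5 groups of equal size by length, the group of shortest transcripts had a median log2 ratio of 0.17 and that of the longest -0.09. Subtracting the median of its length group left Prkacb at -0.65, Prkar2a at -0.16 and Akap1 at 0.16.

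**Figure D2:**
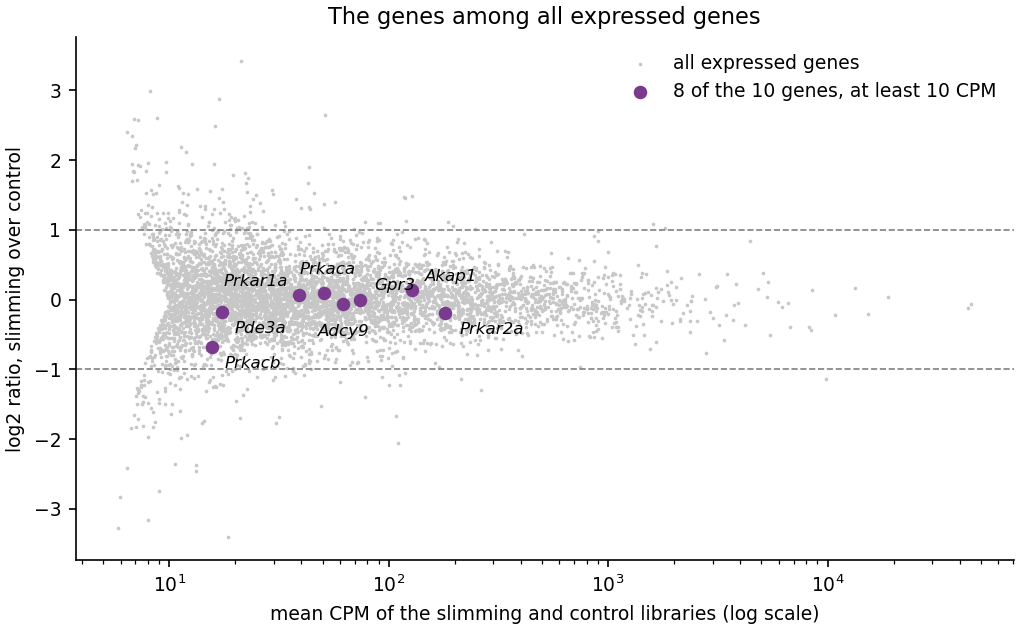
Each grey point is 1 of the 5714 expressed genes, with the mean of both libraries in CPM on a log scale on the horizontal axis and the log2 ratio of slimming over control on the vertical axis; dashed lines mark 2-fold, and purple points are the 8 expressed genes of the set. All 8 lie inside the dashed lines and within the cloud, Prkacb lowest at -0.68.

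Ordered by level per kilobase of transcript, Akap1, Prkar2a, Gpr3 and Prkaca led in both libraries, followed by Adcy9, Prkar1a, Prkacb, Pde3a, Gpr12 and Adcy3. In the slimming library Akap1 stood at 35.4 CPM per kilobase (exact Poisson 95% interval 34.1 to 36.7) and Prkar2a at 34.2 (33.1 to 35.4), and these neighbours overlap. In the control library they changed places, with 31.3 CPM per kilobase for Akap1 (30.1 to 32.6) and 38.1 for Prkar2a (36.9 to 39.3). Gpr3 followed at 29.5 CPM per kilobase in slimming oocytes and 29.1 in control oocytes, and its interval overlapped that of Akap1 in the control library. The interval does not cover the overlap of Gpr3 with Cd164l2, which leaves the level and place of Gpr3 uncertain at either length. Prkaca stood at 23.4 CPM per kilobase in slimming oocytes and 21.3 in control oocytes. Adcy9 stood at 12.3 in slimming oocytes and 12.6 in control oocytes, and Prkar1a at 11.5 in slimming oocytes and 10.7 in control oocytes; their intervals overlapped in the slimming library and not in the control library. Below them came Prkacb, at 2.80 CPM per kilobase in slimming oocytes and 4.40 in control oocytes, and then Pde3a. Gpr12 stood at 0.409 in slimming oocytes and 0.846 in control oocytes, and Adcy3, the lowest of the 10, at 0.153 in slimming oocytes and 0.193 in control oocytes. Of the 45 pairs of genes, 44 had the same order in both libraries. With the median length of the coding transcripts, Prkar2a led at 195.1 CPM per kilobase in slimming oocytes and 217.2 in control oocytes, and Gpr3 came next at 66.6 in slimming oocytes and 65.6 in control oocytes, both above Akap1. A level per kilobase assumes even reading along the transcript, which was not tested for these oligo(dT)-primed libraries.

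The rest of the cAMP pathway was taken from a list of 69 further genes, of which 68 were in the table, 58 had counts and 21 were expressed. Of these 21, 7 lay above and 14 below equality, where 48.6% of expressed genes lay below, and the median log2 ratio was -0.15 against 0.02 over all expressed genes. The counting interval lay above equality for 6 and below it for 9 of them, against 37.7% and 35.1% of expressed genes. None of the 21 was at least 2-fold apart in either direction, where 2.73% of expressed genes were higher and 1.94% lower by as much. At 1.5-fold, 3 were higher (Adcy5, Prkar2b and Cdc25b) and 1 was lower (Akap7), against 10.3% and 7.16% of expressed genes. With the length trend removed the median was -0.07. Akap7 and Atf1 reached 10 CPM in the control library only, and Pde3b in the slimming library only. The filter let these genes in through the library where they were higher, so their directions are no independent support.

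Among G protein alpha subunits, the inhibitory Gnai2 and Gnai3 were more abundant per kilobase than the stimulatory Gnas, through which Gpr3 signals. Gnai2 stood at 102.7 CPM per kilobase in slimming oocytes and 100.6 in control oocytes, and Gnai3 at 55.1 in slimming oocytes and 47.7 in control oocytes. The related Gnaz stood at 23.3 in slimming oocytes and 22.9 in control oocytes, and Gnas at 11.5 in slimming oocytes and 14.8 in control oocytes. Their log2 ratios were 0.00 for Gnai2 and Gnaz, 0.18 for Gnai3 (interval 0.11 to 0.25) and -0.39 for Gnas (-0.52 to -0.27). Gnas shares exon sequence with antisense transcripts, among them Nespas, which had 1 count in slimming oocytes and 34 counts in control oocytes.

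The cyclases other than Adcy9 that were expressed, Adcy5 and Adcy2, went in opposite directions. Of the genes with a mean of 10 to 30 CPM, 16.2% were at least as far apart as Adcy5 and 29.7% as Adcy2. Adcy5 had 677 counts in the slimming library and 399 counts in the control library and was 1.60-fold higher (log2 ratio 0.68, interval 0.50 to 0.86). Adcy2 had 497 counts in the slimming library and 660 counts in the control library and was 1.40-fold lower (log2 ratio -0.49, interval -0.66 to -0.32). Their summed levels per kilobase with the other cyclases that had counts came to 23.5 CPM in slimming oocytes and 24.2 CPM in control oocytes, of which Adcy9 held 52.4% in slimming oocytes and 52.2% in control oocytes. Adcy5 held 19.7% of that sum in slimming oocytes and 11.6% in control oocytes, and Adcy2 held 24.0% in slimming oocytes and 32.0% in control oocytes. Without the length correction Adcy5 was above Adcy2 in slimming oocytes (26.09% against 19.15%) and below it in control oocytes (16.05% against 26.55%). Adcy3 held 0.652% in slimming oocytes and 0.799% in control oocytes.

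Among phosphodiesterases with counts, Pde8a, a cAMP-specific enzyme of high affinity, and not Pde3a was the most abundant per kilobase in both libraries. Pde2a was on the list but was not matched by its symbol, so its level is not known here. Pde8a stood at 5.76 CPM per kilobase in slimming oocytes and 8.15 in control oocytes. It held 47.9% of the sum over the 16 phosphodiesterases with counts in slimming oocytes and 52.6% in control oocytes, whereas Pde3a held 11.2% in slimming oocytes and 9.60% in control oocytes (without the length correction 25.4% in slimming and 23.2% in control oocytes). Without the length correction, too, Pde8a led, with 21.9 CPM (459 counts) in slimming oocytes and 31.0 CPM (627 counts) in control oocytes. Its log2 ratio was -0.53 (interval -0.71 to -0.35). Pde3b, the sister of Pde3a, had 231 counts in slimming oocytes and 179 counts in control oocytes, at a log2 ratio of 0.29 whose interval (0.00 to 0.58) reached equality.

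**Figure D3:**
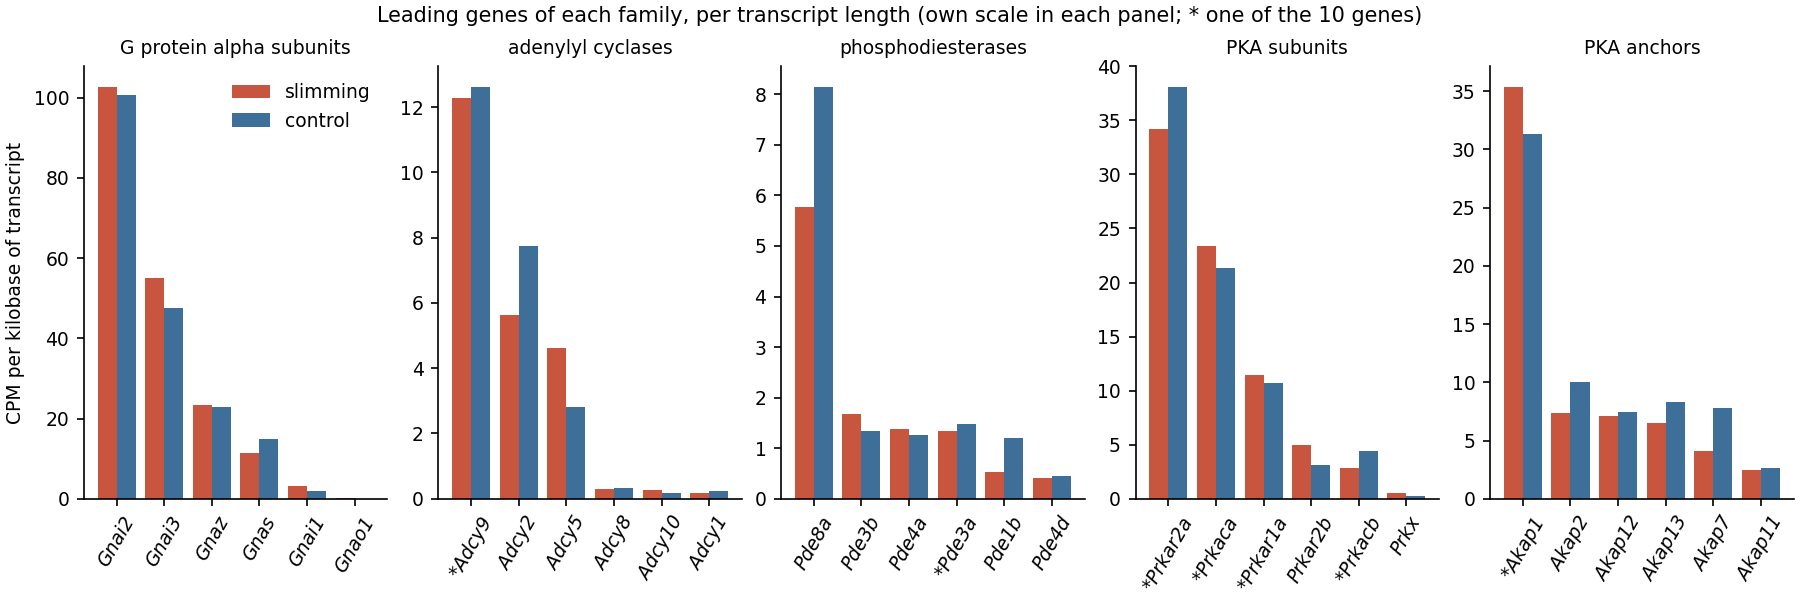
Bars give CPM per kilobase of the longest annotated transcript for up to 6 leading genes of each family, the slimming library to the left of the control library, with a scale of its own in each panel and an asterisk on genes of the set of 10. With this length Adcy9, Prkar2a and Akap1 lead their families in both libraries (by the median coding length Akap13 is above Akap1 in the control library). Of the phosphodiesterases with counts Pde8a leads, at 5.76 (slimming) and 8.15 (control).

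Of the other PKA genes, Prkar2b, the second type II regulatory subunit, had 349 counts in slimming oocytes and 216 counts in control oocytes and was 1.53-fold higher (log2 ratio 0.61, interval 0.36 to 0.86). Pkig, an inhibitor protein of PKA, had a log2 ratio of -0.19 (interval -0.39 to 0.02). All 5 other anchor genes that were expressed lay below equality, opposite to Akap1, where 48.6% of expressed genes of all lengths lay below. Akap2, Akap11, Akap12 and Akap13 were in the group of longest transcripts, whose median log2 ratio was -0.09. With the length trend removed, Akap11 and Akap12 were near equality (-0.07 and -0.01). Akap2 and Akap13 then stood at -0.4 and -0.31 and Akap1 at 0.16, and Akap7 stayed the lowest of these anchors. Akap7 had 206 counts in slimming oocytes and 376 counts in control oocytes and was 1.93-fold lower (log2 ratio -0.95, interval -1.20 to -0.70). At 9.83 CPM in slimming oocytes and 18.6 CPM in control oocytes, Akap7 counted as expressed through the control library only. Akap2 and Akap13 were 1.40-fold and 1.32-fold lower, with intervals below equality, and the log2 ratios of Akap11 (-0.15) and Akap12 (-0.10) had intervals that included it. Akap2 shares 6891 exon bases on the same strand with Pakap, which had a like count (1113 in slimming and 1474 in control oocytes), so these are not separate measurements. Akap1 held 55.5% of the summed anchor level per kilobase in slimming oocytes and 45.5% in control oocytes. With the median length of the coding transcripts in place of the longest, its share was 33.2% in slimming oocytes and 24.1% in control oocytes, and Akap13 stood next to it in slimming oocytes (36.1 against 36.4 CPM per kilobase) and above it in control oocytes (46.5 against 32.2).

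Among genes that act on cAMP signals downstream, Crtc3, a coactivator of CREB, was 1.47-fold higher (log2 ratio 0.55, interval 0.39 to 0.72), and its relative Crtc1 had a log2 ratio of -0.18 (-0.33 to -0.03). Atf1, a transcription factor of the CREB family, was 1.49-fold lower (log2 ratio -0.57, interval -0.85 to -0.31). The PKA substrate Wee2, the oocyte kinase that blocks CDK1, had 626.5 CPM in slimming oocytes and 688.6 CPM in control oocytes, at a log2 ratio of -0.17 (-0.20 to -0.13), and Cdc25b, the phosphatase that opposes it, had a log2 ratio of 0.87 (0.75 to 0.99). Gja4, the connexin of the oocyte through which cyclic GMP enters, had 287.4 CPM in slimming oocytes and 209.9 CPM in control oocytes (log2 ratio 0.42, interval 0.36 to 0.48).

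**Figure D4:**
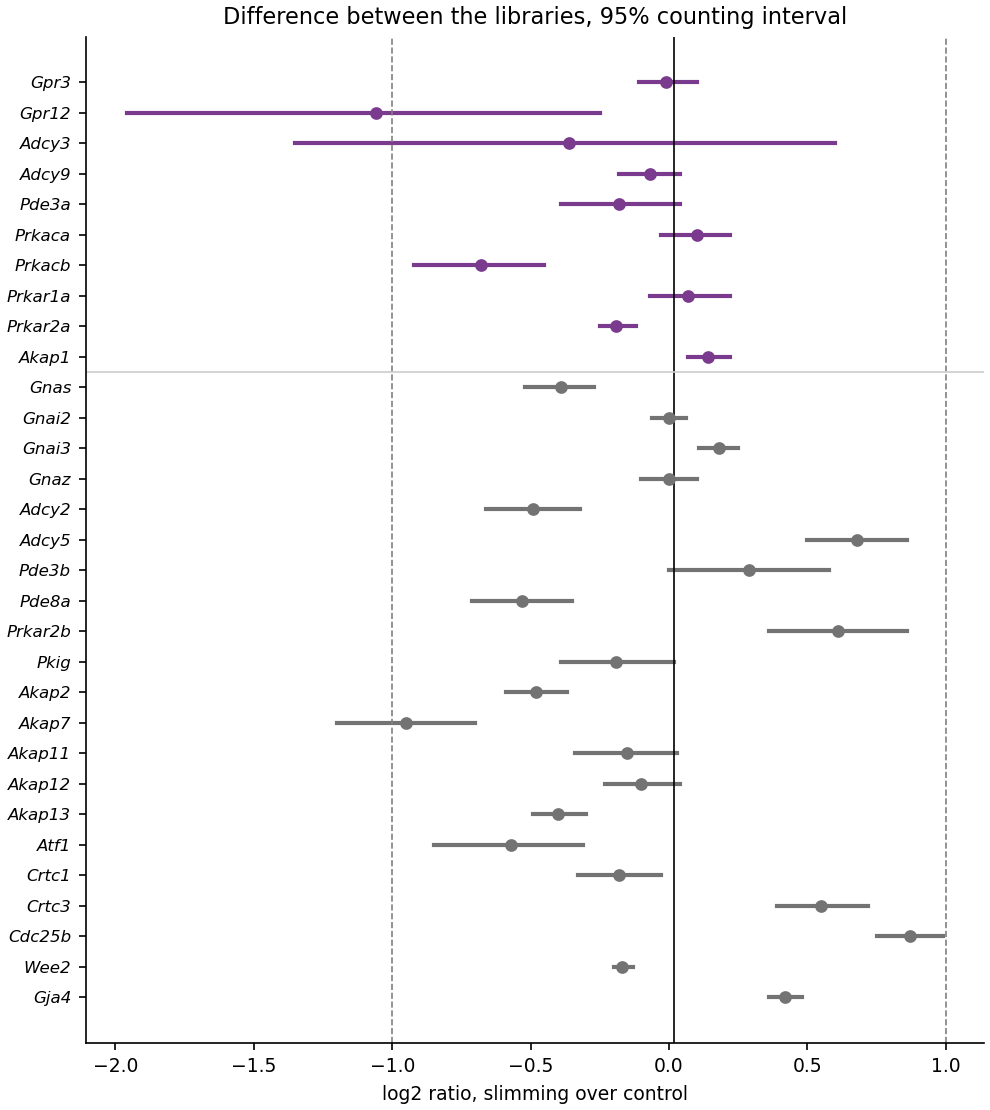
Points give the log2 ratio of slimming over control and lines its 95% counting interval, with the 10 genes in purple on top and the 21 expressed genes of the wider list in grey. The solid line marks the median of all expressed genes (0.02) and the dashed lines 2-fold; of the points, only that of Gpr12 (-1.06) lies past a dashed line.

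The remaining 37 genes of the wider list with counts stayed under 10 CPM in both libraries, the highest at 9.79 CPM. Of these, 12 were lower by 2-fold or more and 5 were higher by as much in the slimming library, where 29.8% and 24.6% of all genes with counts under 10 CPM were. Npr2, the granulosa cell receptor that makes cyclic GMP, named after its values were seen, had 1 count in slimming oocytes and 16 counts in control oocytes. Npr2 is also 1 of the 15 granulosa markers, 8 of whose 9 detected genes were lower in the slimming library. Over all genes, 6674 of the 12303 with counts under 10 CPM and 48.6% of expressed genes were lower. The part of granulosa RNA in these low counts was not tested. The gene of the Npr2 ligand, Nppc, had no count in either library. Of the other low genes listed for cyclic GMP, Gja1 had 1 count in each library. Prkg1 was higher in the slimming library, with 111 counts against 57 counts in the control library (log2 ratio 0.87, interval 0.41 to 1.37). Of the expressed genes named from the wider list, Adcy2, Akap7 and Cdc25b also share exon bases with a gene on the opposite strand (189, 47 and 92 bases), and the Atf1 transcript has a near-identical annotated copy, Atf1-ps, with 6 counts in slimming oocytes and 3 counts in control oocytes. Stretches of Akap11 and Pkig match the annotated genes Gm15057, which had no count in either library, and Gm6334, which was not analysed here, so the counts of these genes are uncertain to that extent.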

How the data were processed

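Messenger RNA of 2 pools of mouse oocytes was measured. Per the labels' protocols, 9 oocytes were lysed together, primed with an oligo(dT) stretch of 24 bases, amplified for 18 and then 14 PCR cycles and sequenced on a SOLiD 4 instrument. The submitters' processing notes name the genome build mm9; the sources used here give no aligner, counting program or strand setting. The authors deposited raw read counts per Ensembl gene, with 18210 genes left blank in both libraries (read as no count). The log2 ratios, the z-score (a score per gene) and the p-value and q-values are also the authors' own, per the file headers, and the p-value compares the reads of 2 libraries.

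Symbols came from GENCODE vM21 (GRCm38) by Ensembl identifier and matched 16913 of the 18017 genes with counts; transcript lengths, exon overlaps, near-identical copies (blastn 2.17.0) and transcript ends came from the same annotation. CPM uses the total counts, and the limit that a count of 0 leaves, 3 counts, is 0.143 CPM for slimming and 0.148 CPM for control oocytes. Log2 ratios used TMM scaling (edgeR 4.0.16, R 4.3.3) after adding 0.5 to each count, with exact Clopper-Pearson intervals of the slimming share. Intervals cover counting error only, and PCR copies are not independent molecules. The count of genes as far apart as a given gene was taken within bands of mean CPM. Scaling by total count and by DESeq2 1.42.0 size factors, other filters, 5 added to each count and other lengths were tried, and the calculations were tested on simulated data. Python 3.11.15, numpy 2.4.6, scipy 1.17.1, pandas 2.3.3 and matplotlib 3.10.9 were used.

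The genes and lists were chosen with earlier results of these data known. All 10 genes were named, and of the wider list each gene that reached 10 CPM in either library; others named were picked after their values were seen. Protein sequences were not used here.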

Additional observations from a re-analysis of the deposited data

How the results depend on the processing

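The log2 ratios of the 10 genes stayed within their counting intervals under each of the 4 settings tried on them, with shifts of 0.03 to 0.04 for scaling by total count, 0.01 to 0.02 for DESeq2 size factors, 0.00 to 0.14 for 5 added to each count and -0.05 to 0.09 with the length trend removed, a setting chosen after seeing the data. Gpr3, at -0.01, turned to the other side of 0 under scaling by total count (0.02) and by DESeq2 size factors (0.01), and no other of the 10 did. The number of the 10 genes at least 2-fold lower was 1 (Gpr12) at the main setting and 0 with 5 added to each count, which draws low counts together by construction. Their median ranged from -0.12 with low genes included to -0.01 by total count, and that of the wider list from -0.16 to -0.07. Of all genes, 1038 were at least 2-fold higher and 987 lower when those from 1 CPM were counted, and 3186 higher and 3774 lower with no filter, against 156 and 111 from 10 CPM: more genes with few counts enter. The order of the genes by level kept 43 of 45 pairs with the median length of coding transcripts and 42 with no length correction. Family shares and level ratios per kilobase were also taken under these lengths, a choice made after seeing the data. Of those printed above, Akap1, Pde3a and Prkaca over Prkacb moved by over 1.5 times, as given beside them. Shares not printed above moved as far. In slimming oocytes Prkar2a held 44.2% of the PKA subunits by the longest transcript and 79.6% by the median coding length. No paired analysis was possible because each group was 1 library, and leaving out a replicate was not possible for the same reason. Gpr12 and Adcy3, at 18 to 38 counts, are limited by depth.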
